A study of Homo sapiens with 8 samples.

Results

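The genes described here are 8 that encode antimicrobial and protective proteins of epithelial surfaces: PI3 (elafin), LCN2 (lipocalin 2), SLPI, S100A7, S100A8, S100A9, BPIFB1 and PIGR. They were found by gene symbol, and all 8 stood once in each of the 2 count tables, which list 46427 genes for NCI-H1944 and 61271 for NCI-H647. These are established human lung cancer cell lines. Cells labelled WT in genotype had received 100 nM of the MPS1 inhibitor BAY-1217389 or DMSO as vehicle for 48 h, followed by 24 h without drug. Penicillin-streptomycin and plasmocin were in the medium of every group. There were 2 libraries for each of the 4 groups: NCI-H1944 with inhibitor, NCI-H1944 with DMSO, NCI-H647 with inhibitor and NCI-H647 with DMSO. MPS1 (TTK) is the kinase that holds back anaphase until chromosomes are attached, and the comparison asked how expression had altered after a pulse of its inhibition. The genes were chosen with their inhibitor and DMSO counts in both lines known, so their own values are given as a description and carry no test.

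Elafin and SLPI are small secreted inhibitors of neutrophil elastase built on the whey acidic protein (WAP) fold, and both also act against microbes. Lipocalin 2 takes iron from bacteria by binding their siderophores. S100A8 and S100A9 form calprotectin, which withholds zinc and manganese, and S100A7 (psoriasin) is an antimicrobial of keratinocytes. BPIFB1 is a secreted protein of airway glands and goblet cells, and PIGR is the receptor that carries polymeric IgA across the epithelium. In skin and airway epithelium several of these genes are known to be switched on by interleukin-1, interleukin-17 and TNF through NF-kB and its partner IkB-zeta.

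Library totals were 43661342 and 43067647 counts with inhibitor and 39332931 and 38904473 with DMSO in NCI-H1944. In NCI-H647 they were 13563037 and 13358514 with inhibitor and 19550859 and 17243487 with DMSO, so 1 count weighs more there. The NCI-H1944 libraries were poly(A)-selected and those of NCI-H647 were depleted of ribosomal RNA, so line and library kit cannot be told apart in any level set across the lines. Levels are given as CPM, the counts relative to the library total. Of the low counts from 1 to 10, 52.0% were even in NCI-H1944 and 37.1% in NCI-H647, and counting intervals in NCI-H1944 may therefore be too narrow. The cause of the even counts was not tested. Of 6 epithelial markers, the keratins KRT7, KRT8 and KRT18 were abundant in both lines, between 184 and 2687 CPM as group means. In NCI-H647 all 3 were lower with inhibitor (log2 -0.70, -0.41 and -0.30) and KRT19 was higher, with 1 marker called higher and 3 lower. In NCI-H1944, KRT8 and KRT18 were called higher (log2 0.29 and 0.19) and no marker lower. KRT19 was listed at 0 in NCI-H1944. The adhesion gene CDH1 was near the floor in NCI-H647, with 5 and 9 counts with inhibitor and 3 and 8 with DMSO, EPCAM was under 5 CPM in the group means of both lines, and the surfactant gene SFTPB had at most 1 count in any library. Of 12 neutrophil markers 6 were at 0 in each line, among them MPO, DEFA1, DEFA4 and CEACAM8. Their summed level was 2.61 and 3.23 CPM with inhibitor and 3.18 and 2.78 CPM with DMSO in NCI-H1944. In NCI-H647 the sum was 0.737 and 0.599 CPM with inhibitor and 0.307 and 0.406 CPM with DMSO. For 10 markers of other leukocytes the sum ran from 165 to 169 CPM with inhibitor and from 72.6 to 76.8 CPM with DMSO in NCI-H1944, and from 229.9 to 232.1 against 147.1 to 147.8 CPM in NCI-H647. That sum lay almost wholly in CD68, a lysosomal protein that is not confined to macrophages, and 2 of the 10 markers were called higher and none lower in each line. In NCI-H1944 these were CD68 and LYZ, and in NCI-H647 CD68 and CD14, the last with 30 and 31 counts with inhibitor and 11 and 12 with DMSO (log2 1.80 ± 0.34). The part of these markers in the results below was not tested. The pan-leukocyte gene PTPRC was at 0 in NCI-H1944, and had 2 and 1 counts with inhibitor and 8 and 4 with DMSO in NCI-H647.

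Elafin and lipocalin 2 were already present in NCI-H1944 cells given DMSO, and were at or next to 0 in NCI-H647 cells given DMSO. With inhibitor both were higher in every library of either line. NCI-H1944 thus showed a rise of under 2-fold on an existing level, and NCI-H647 a rise from counts near the floor. In all, 7 of the 8 genes in NCI-H1944 and 5 of 8 in NCI-H647 had both inhibitor libraries above both DMSO libraries in CPM. Among all genes tested, both inhibitor libraries lay above both DMSO libraries for 28.9% in NCI-H1944 and 42.5% in NCI-H647, and below them for 32.4% and 33.9%. Because the genes were picked on this contrast, nothing follows from the comparison. The filter on low counts was passed by 7 of the 8 in NCI-H1944 and by 4 in NCI-H647. In such bulk RNA, more cells that express a gene and more RNA per cell cannot be told apart.

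**Figure D1:**
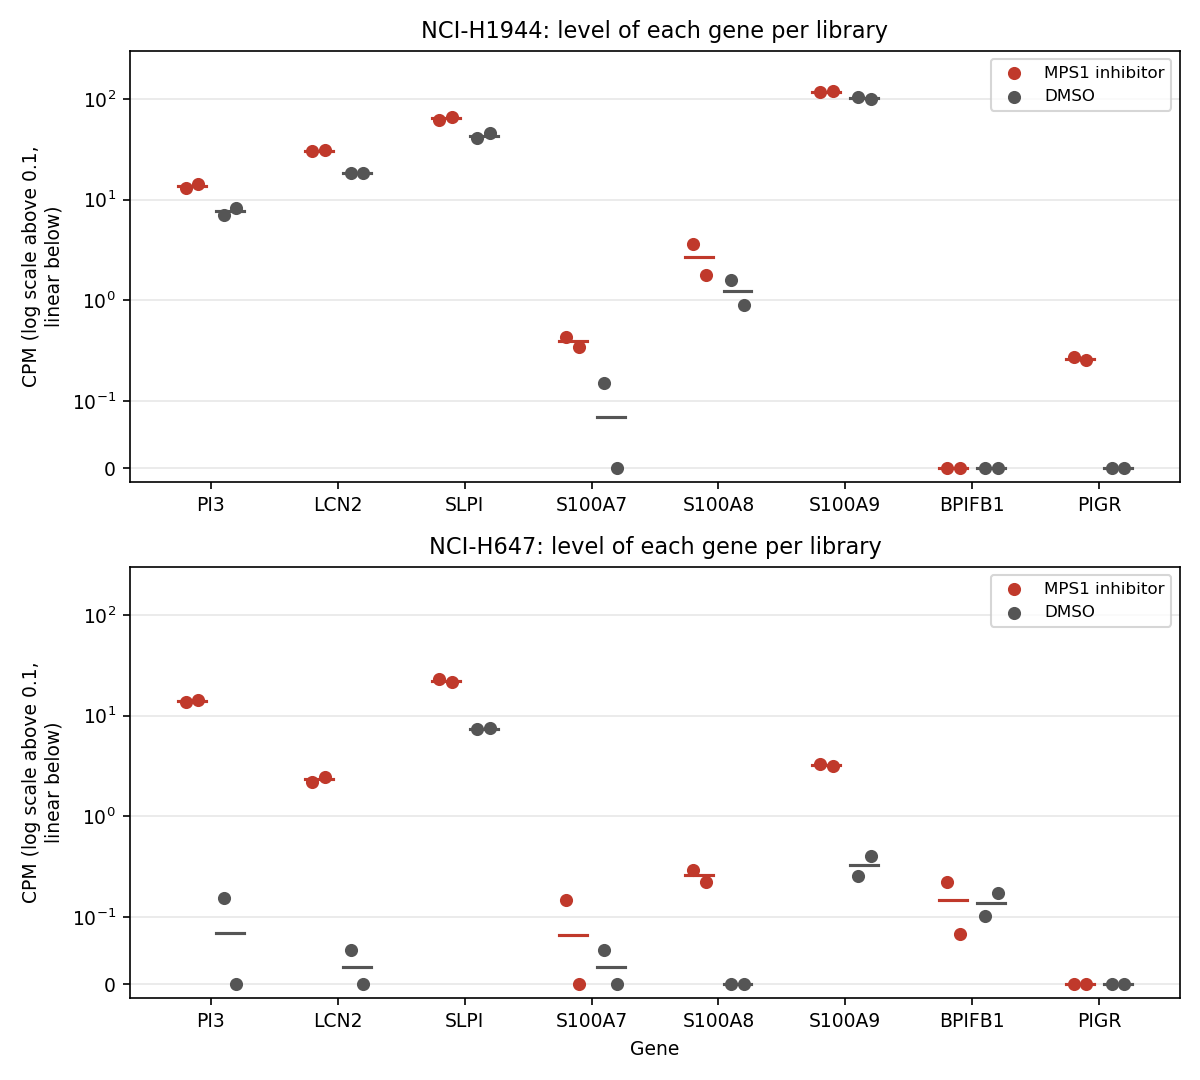
CPM of the 8 genes in each library of NCI-H1944 (top) and NCI-H647 (bottom), inhibitor in red and DMSO in grey, with a bar at the mean of the 2 libraries. The axis is logarithmic above 0.1 CPM and linear below. PI3 reached 13.9 CPM with inhibitor in NCI-H647, near the 13.8 CPM of NCI-H1944 with inhibitor, while its DMSO levels lay apart, at 0.0767 and 7.69 CPM.

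PI3 (NCBI gene 5266) lies on chromosome 20 at 45174902 to 45176544, plus strand, in the coordinates of the NCI-H647 table, whose build per the labels is GRCh38. In NCI-H647 it had 183 and 190 counts with inhibitor, against 3 and 0 with DMSO. Pooled over libraries its CPM was 169.9 times as high with inhibitor, with a 95% counting interval from 57.7 to 828 that covers counting error only. In NCI-H1944 it had 576 and 617 counts with inhibitor and 278 and 323 with DMSO, or 13.8 ± 0.802 CPM and 7.69 ± 0.873 CPM (SD, n = 2 each). The fitted log2 fold change was 0.85 ± 0.11 (standard error of the fit), a 1.81-fold rise. The groups did not overlap in either line. The mean levels with inhibitor, 13.9 CPM in NCI-H647 and 13.8 CPM in NCI-H1944, differed by less than the spread of either pair, whereas the DMSO levels differed by far more than theirs. The difference between the lines in the size of the rise was not tested.

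LCN2 (NCBI gene 3934) lies on chromosome 9 at 128149071 to 128153453, plus strand. In NCI-H647 it had 30 and 33 counts with inhibitor and 1 and 0 with DMSO. Its pooled CPM was 86.1 times as high with inhibitor, and with a single DMSO count the counting interval ran from 14.9 to 3454. In NCI-H1944 it had 1322 and 1329 counts with inhibitor and 731 and 723 with DMSO, or 30.6 ± 0.410 CPM and 18.6 ± 0.000675 CPM (SD, n = 2 each), a log2 fold change of 0.73 ± 0.07. Here, unlike for PI3, the level with inhibitor in NCI-H647, 2.34 CPM, remained far under that of NCI-H1944 with DMSO.

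The bases just before the LCN2 start are shown, counted from the start in the RefSeq promoter table at 128149453. They hold letters of 3 motifs whose factors are known to act on this gene. Those of S100A9, which also rose in NCI-H647 (log2 3.23 ± 0.37), are shown as a stretch in which no match was found. Any part of the motifs in either rise was not tested. Sequences are from RefSeq (GRCh38.p14), where 6 of the 8 genes had an entry. That LCN2 start lies 382 bases downstream of the first base of the gene in the count table, so the stretch is within the gene's span there. Both are on the plus strand, LCN2 at chr9:128149265-128149440, trimmed of annotated exons, and S100A9 at chr1:153357604-153357853. Capitals mark motif matches.
LCN2: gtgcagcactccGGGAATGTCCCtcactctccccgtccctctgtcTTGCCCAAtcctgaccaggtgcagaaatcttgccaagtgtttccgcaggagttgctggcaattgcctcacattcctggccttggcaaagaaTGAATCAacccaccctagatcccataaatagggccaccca
S100A9: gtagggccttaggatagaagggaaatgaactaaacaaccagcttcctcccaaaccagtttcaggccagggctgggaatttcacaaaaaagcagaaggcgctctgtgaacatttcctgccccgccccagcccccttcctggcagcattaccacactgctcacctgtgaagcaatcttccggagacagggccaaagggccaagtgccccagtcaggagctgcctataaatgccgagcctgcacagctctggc

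The motifs, read on both strands in the 250 bases before each start, were NF-kB (GGGA and CC with any 4 bases between them), AP-1 (TGANTCA), C/EBP (TTGCNNAA), GAS (TTCNNNGAA) and the interferon element ISRE (GAAA and GAAA with any 2 bases between them). In LCN2 the NF-kB letters matched on both strands, in overlapping runs that begin 176 and 175 bases before the start, the C/EBP letters matched at 143 and the AP-1 letters at 52. Of 35116 promoters in the table, 22.6% held the NF-kB letters, 6.57% the AP-1 letters, 9.05% the C/EBP letters, 6.57% the GAS letters and 3.02% the ISRE letters. S100A7 held 2 matches to the NF-kB letters and none to the other 4 motifs, and S100A8, S100A9, BPIFB1 and PIGR held no match to any of the 5. A match is a string of letters and was not tested for binding.

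SLPI (NCBI gene 6590), the other elastase inhibitor, lies near PI3 on chromosome 20 at 45252239 to 45254564, minus strand. It was the member with the most counts in NCI-H647, 314 and 286 with inhibitor against 144 and 129 with DMSO, or 22.3 ± 1.23 CPM and 7.42 ± 0.0818 CPM (SD, n = 2 each). The log2 fold change was 1.54 ± 0.10. In NCI-H1944 it had 2719 and 2853 counts with inhibitor and 1604 and 1781 with DMSO, or 64.3 ± 2.81 CPM and 43.3 ± 3.53 CPM, with a log2 fold change of 0.58 ± 0.06. The groups did not overlap in either line, and NCI-H1944 with DMSO was above NCI-H647 with inhibitor.

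S100A9 and S100A8, the chains of calprotectin, lie close together on chromosome 1, S100A9 at 153357854 to 153361023 on the plus strand and S100A8 at 153390032 to 153391073 on the minus strand. S100A9 had 45 and 42 counts with inhibitor and 5 and 7 with DMSO in NCI-H647, a log2 fold change of 3.23 ± 0.37. In NCI-H1944, where it was the most abundant of the 8 genes per exon length, it had 5113 and 5136 counts with inhibitor and 4102 and 3914 with DMSO, a log2 fold change of 0.22 ± 0.04. S100A8 was much lower than its partner. It had 4 and 3 counts with inhibitor and 0 and 0 with DMSO in NCI-H647. Its pooled CPM with inhibitor there was 3.19 times the floor of 3 counts over the DMSO group. That value leaves out counting error, and the counting interval of the S100A8 ratio began at 1.97. In NCI-H1944 it had 158 and 77 counts with inhibitor and 63 and 35 with DMSO, and its log2 fold change of 1.12 ± 0.33 rests on pairs that spread widely, running from 0.52 to 1.60 when 1 library is left out. The lower inhibitor library, at 1.79 CPM, was barely above the higher DMSO library, at 1.60 CPM.

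S100A7, PIGR and BPIFB1 were at or near the floor. S100A7 (chromosome 1, 153457744 to 153460651, minus strand) had 19 and 15 counts with inhibitor and 6 and 0 with DMSO in NCI-H1944, a log2 fold change of 2.32 ± 0.85, which ran from 1.35 without the second DMSO library to 7.05 without the first, when DMSO is at 0. In NCI-H647 it had 2 and 0 counts with inhibitor and 1 and 0 with DMSO, too few for a fold. Its near-identical copy S100A7A may share its reads. PIGR (chromosome 1, 206928522 to 206946466, minus strand) had 12 and 11 counts with inhibitor and 0 and 0 with DMSO in NCI-H1944. Its pooled CPM with inhibitor was 6.92 times the floor of 3 counts over the DMSO group. The 95% counting interval of its ratio began at 5.19. PIGR was at 0 in all NCI-H647 libraries, where 3 counts would correspond to 0.111 CPM over the inhibitor group and 0.0815 CPM over the DMSO group. BPIFB1 (chromosome 20, 33273480 to 33309871, plus strand) was at 0 in NCI-H1944. It had 3 and 1 counts with inhibitor and 2 and 3 with DMSO in NCI-H647, a pooled CPM ratio of 1.09 with a counting interval from 0.217 to 5.08, and the groups overlapped.

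**Figure D2:**
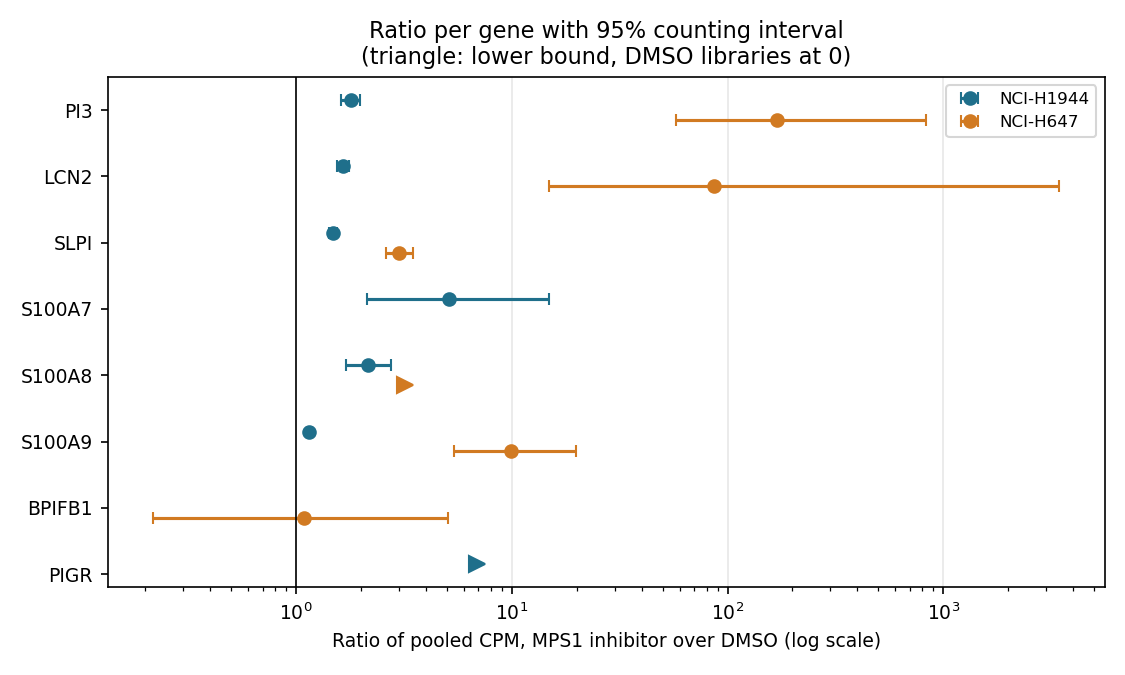
Pooled CPM with inhibitor over pooled CPM with DMSO for each gene (log axis), NCI-H1944 in blue and NCI-H647 in orange, with 95% counting intervals that leave out replicate spread. Triangles set the inhibitor level over a floor of 3 DMSO counts, where DMSO was at 0, and leave out counting error. A gene is left out of a line where neither group was above the floor. PI3 and LCN2 in NCI-H647 lie far to the right, at 169.9 and 86.1, with wide intervals.

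Per kilobase of exon (the union of exons in GENCODE 29), the order of levels with DMSO in NCI-H1944 was S100A9 at 177.6, SLPI at 72.6, LCN2 at 17.8, PI3 at 13.3 and S100A8 at 1.95 CPM per kb, with S100A7, PIGR and BPIFB1 under 0.2. The order was the same with inhibitor, at 204.8, 107.8, 29.3, 23.8 and 4.20 CPM per kb for those 5. Neighbours among these 5 were further apart than the spread of their pairs. In NCI-H647 with inhibitor SLPI led at 37.4 CPM per kb, PI3 followed at 24.0, S100A9 at 5.60, LCN2 at 2.25 and S100A8 at 0.404. With DMSO in that line SLPI stood at 12.5 CPM per kb and the other 7 genes at 0.573 or less, where the order of all but S100A9 rests on at most 5 counts a gene.

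The families around these genes were examined as lists with edgeR's quasi-likelihood test, adjusted over all genes tested. Of all genes tested, 26.0% were called in either direction in NCI-H1944 and 54.4% in NCI-H647. By direction, 13.6% were called higher and 12.4% lower with inhibitor in NCI-H1944, and 27.3% and 27.0% in NCI-H647. The WAP family beside PI3 and SLPI was mostly silent, with 12 of 14 genes at 0 in NCI-H1944 and 9 of 14 in NCI-H647. A single gene of it was tested in each line: WFDC3 in NCI-H1944 had 19 and 27 counts with inhibitor and 17 and 20 with DMSO, and ANOS1, the gene of the secreted protein anosmin, fell in NCI-H647 (log2 -0.73 ± 0.11, adjusted p = 5.29e-05).

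Of the other S100 genes 4 of 10 tested were called higher and none lower in NCI-H1944, and 2 higher and 1 lower of 9 in NCI-H647, with medians of 0.13 and -0.04 beside 0.0011 and 0.0054 over all genes tested. S100A11 rose slightly in both lines, by 0.26 ± 0.03 (adjusted p = 1.83e-06) in NCI-H1944 and by 0.36 ± 0.04 (adjusted p = 4.44e-06) in NCI-H647. S100A6, which pairs with several annexins, rose by 0.10 ± 0.02 in NCI-H1944 (adjusted p = 0.00733). Leaving out the first DMSO library ended that call, with an adjusted p of 0.0759. S100P averaged 781 CPM with inhibitor and 790 CPM with DMSO in NCI-H1944 and rose by 0.37 ± 0.07 in NCI-H647 (adjusted p = 0.000448). S100A10, the partner of annexin A2, rose by 0.16 ± 0.03 in NCI-H1944 (adjusted p = 0.000394) and fell in NCI-H647 (log2 -0.21 ± 0.04, adjusted p = 0.000292). Of 27 other secreted antimicrobial proteins 7 were tested in NCI-H1944, with 2 higher and none lower, and 5 in NCI-H647, with 1 higher and 1 lower (medians 0.62 and 0.47). CCL20, a chemokine with antimicrobial activity, had 10204 and 9747 counts with inhibitor and 1624 and 1357 with DMSO in NCI-H647 (log2 3.15 ± 0.04, adjusted p = 3.68e-17). In NCI-H1944 it had 107 and 98 against 8 and 26 (log2 2.45 ± 0.38, adjusted p = 0.000134), and the log2 value ran from 1.83 without the first DMSO library to 3.52 without the second. LYZ (lysozyme) had 17 and 33 counts with inhibitor and 0 and 5 with DMSO in NCI-H1944 (adjusted p = 0.00958). Over the alternatives its adjusted p ran from 0.000130 to 0.160, and the call ended when the second inhibitor library or the filter on low counts was left out. DESeq2 gave LYZ no adjusted p. Its fitted log2 value ran from 2.16 without the first DMSO library to 7.61 without the second, when DMSO is at 0. DMBT1, a mucosal scavenger protein that binds bacteria, fell in NCI-H647 (log2 -0.77 ± 0.07, adjusted p = 2.70e-07).

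Transcription factors known to act in epithelial defence rose widely: 15 of 20 tested were higher and 1 lower in NCI-H1944 (median 0.38), and 16 of 20 were higher and none lower in NCI-H647 (median 0.72). NFKBIZ, which encodes IkB-zeta, averaged 128.7 ± 3.03 CPM with inhibitor and 47.5 ± 0.364 CPM with DMSO in NCI-H647 (SD, n = 2 each; log2 1.39 ± 0.05, adjusted p = 7.18e-12 in edgeR's test). In NCI-H1944 it averaged 20.6 ± 1.53 CPM with inhibitor and 11.2 ± 0.438 CPM with DMSO (log2 0.90 ± 0.09, adjusted p = 1.09e-06 in edgeR's test). IRF1, a factor of the interferon response, rose by 1.43 ± 0.07 in NCI-H647 and by 1.48 ± 0.06 in NCI-H1944. JUNB, an AP-1 subunit, rose by 1.54 ± 0.05 in NCI-H647 and by 0.34 ± 0.04 in NCI-H1944. The 3 next genes were picked after their values were seen. ELF3, an epithelial factor, rose by 3.52 ± 0.31 in NCI-H647 (adjusted p = 1.71e-07) and by 0.17 ± 0.04 in NCI-H1944 (adjusted p = 0.00191). In NCI-H647 it was low, with 73 and 86 counts with inhibitor and 7 and 11 with DMSO. Its log2 value there ran from 3.14 to 3.96 without 1 library. In NCI-H1944 ELF3 averaged 130.9 CPM with inhibitor and 117.0 CPM with DMSO. CEBPB rose by 0.59 ± 0.05 in NCI-H647 (adjusted p = 3.70e-08) and was -0.06 ± 0.04 in NCI-H1944 (adjusted p = 0.314). CEBPA was the factor that fell in NCI-H1944 (log2 -0.43 ± 0.08, adjusted p = 0.000773).

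Cytokines that induce these genes, with their receptors and adaptors, were called higher in 11 of 17 tested and lower in 1 in NCI-H1944 (median 0.28), and higher in 11 of 16 and lower in 1 in NCI-H647 (median 0.32). The gene that fell was in both lines TNFRSF1A, a TNF receptor (log2 -0.17 ± 0.03 in NCI-H1944 and -0.37 ± 0.04 in NCI-H647). IL1A, an epithelial alarmin, averaged 184.8 ± 7.34 CPM with inhibitor and 34.8 ± 1.21 CPM with DMSO in NCI-H647, and 2.59 ± 0.448 against 1.10 ± 0.117 CPM in NCI-H1944 (log2 2.36 ± 0.05 in NCI-H647 and 1.25 ± 0.25 in NCI-H1944). IL1B had 64 and 44 counts with inhibitor and 39 and 38 with DMSO in NCI-H1944 (log2 0.35 ± 0.31, adjusted p = 0.470), while in NCI-H647 it rose by 4.60 ± 0.05 (adjusted p = 2.06e-18). MYD88, the adaptor of interleukin-1 and Toll-like receptors, rose by 0.64 ± 0.12 in NCI-H647 (adjusted p = 0.000363) and by 1.61 ± 0.05 in NCI-H1944 (adjusted p = 3.05e-13). IL6 rose by 2.40 ± 0.05 in NCI-H647 and by 2.02 ± 0.10 in NCI-H1944. IL17A, IL17F, IL22 and IFNG, products of lymphocytes, were at 0 in both lines.

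**Figure D3:**
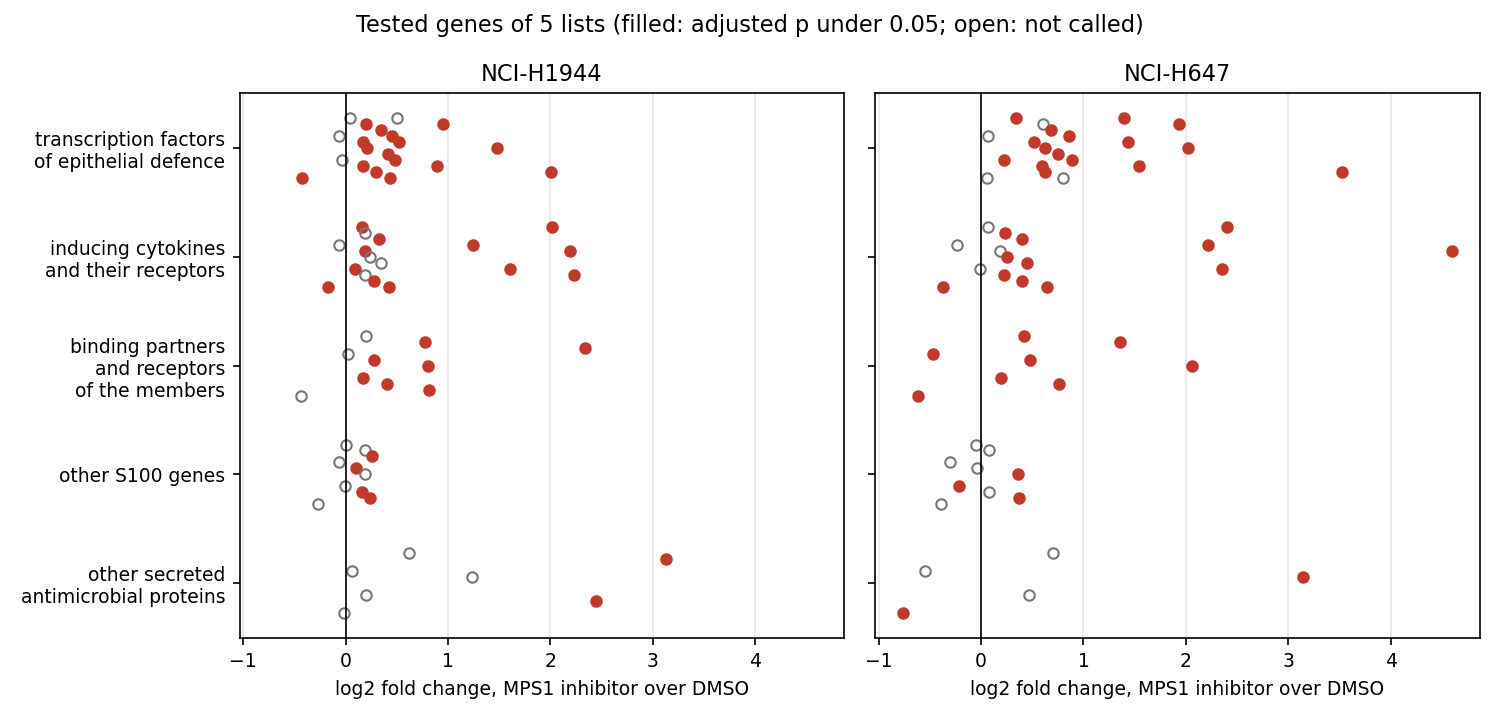
Log2 fold changes (inhibitor over DMSO) of the tested genes of 5 lists in NCI-H1944 (left) and NCI-H647 (right), each point 1 gene, filled where the adjusted p was under 0.05. The transcription factors lie mostly right of 0, with 15 of 20 called higher in NCI-H1944 and 16 of 20 in NCI-H647, while the other S100 genes stay close to 0. Vertical offsets only separate points.

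Proteins that bind the products of these genes were called higher in 7 of 10 tested and lower in none in NCI-H1944 (median 0.35), and higher in 6 and lower in 2 of 8 in NCI-H647 (median 0.45). TGM2, a transglutaminase of the family that crosslinks elafin to matrix, rose by 0.42 ± 0.05 in NCI-H647 (adjusted p = 1.66e-06) and by 0.80 ± 0.03 in NCI-H1944 (adjusted p = 1.77e-12). MMP9, the gelatinase that lipocalin 2 binds and stabilises, had 97 and 102 counts with inhibitor and 34 and 29 with DMSO in NCI-H647 (log2 2.06 ± 0.20, adjusted p = 4.99e-07). In NCI-H1944 it had 11 and 4 against 0 and 0 counts and was not tested. PLSCR1, a scramblase that binds SLPI and is itself induced by interferon, rose by 1.36 ± 0.05 in NCI-H647 and by 2.34 ± 0.05 in NCI-H1944. ANXA2, also known to bind SLPI, rose by 0.17 ± 0.02 in NCI-H1944 (adjusted p = 1.41e-05) and fell in NCI-H647 (log2 -0.47 ± 0.03, adjusted p = 2.51e-09). PLSCR4, the other scramblase listed and chosen after its values were seen, rose by 0.41 ± 0.09 in NCI-H1944 and fell in NCI-H647 (log2 -0.62 ± 0.07). SLC22A17, a proposed lipocalin 2 receptor named on the same terms, rose by 0.82 ± 0.25 in NCI-H1944 (adjusted p = 0.0247). Over the alternatives its adjusted p ran from 0.0151 to 0.248, and the call ended when the first inhibitor library, the second DMSO library or the low-count filter was left out, and with DESeq2. The neutrophil elastase gene ELANE had at most 11 counts in any library.

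Protein-coding genes within 250 kb of each member were looked up by position after the members' values were seen. Around PI3, 16 such genes besides SLPI were listed. Of 8 tested in NCI-H1944, 2 were called higher and 1 lower, and of 7 in NCI-H647, 4 were higher and 1 lower. SDC4, a syndecan beyond SLPI, rose by 0.93 ± 0.04 in NCI-H1944 (adjusted p = 1.89e-11) and by 0.79 ± 0.05 in NCI-H647 (adjusted p = 6.01e-09). DBNDD2 rose by 1.46 ± 0.22 in NCI-H647 and was -0.02 ± 0.13 in NCI-H1944. WFDC5, WFDC12, SEMG1 and SEMG2, which flank PI3 directly, were too low to test. Around LCN2, 18 genes were listed, of which 1 of 16 tested was higher and 7 lower in NCI-H1944, and 5 of 18 higher and 3 lower in NCI-H647. SLC25A25, a mitochondrial carrier, rose by 0.45 ± 0.07 and 1.15 ± 0.10 in NCI-H1944 and NCI-H647. Around S100A9 the tested genes were S100A2, S100A3, S100A4, S100A6 and S100A16, with 2 of 5 higher in NCI-H1944 and none called in NCI-H647 by edgeR. Around PIGR, 13 genes were listed. Of 8 tested in NCI-H1944, 5 were higher and none lower, and of 7 in NCI-H647, 6 were higher and 1 lower. IL24 there rose by 3.74 ± 0.21 in NCI-H1944 and by 4.38 ± 0.33 in NCI-H647. No gene around BPIFB1 was called in either line.

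**Figure D4:**
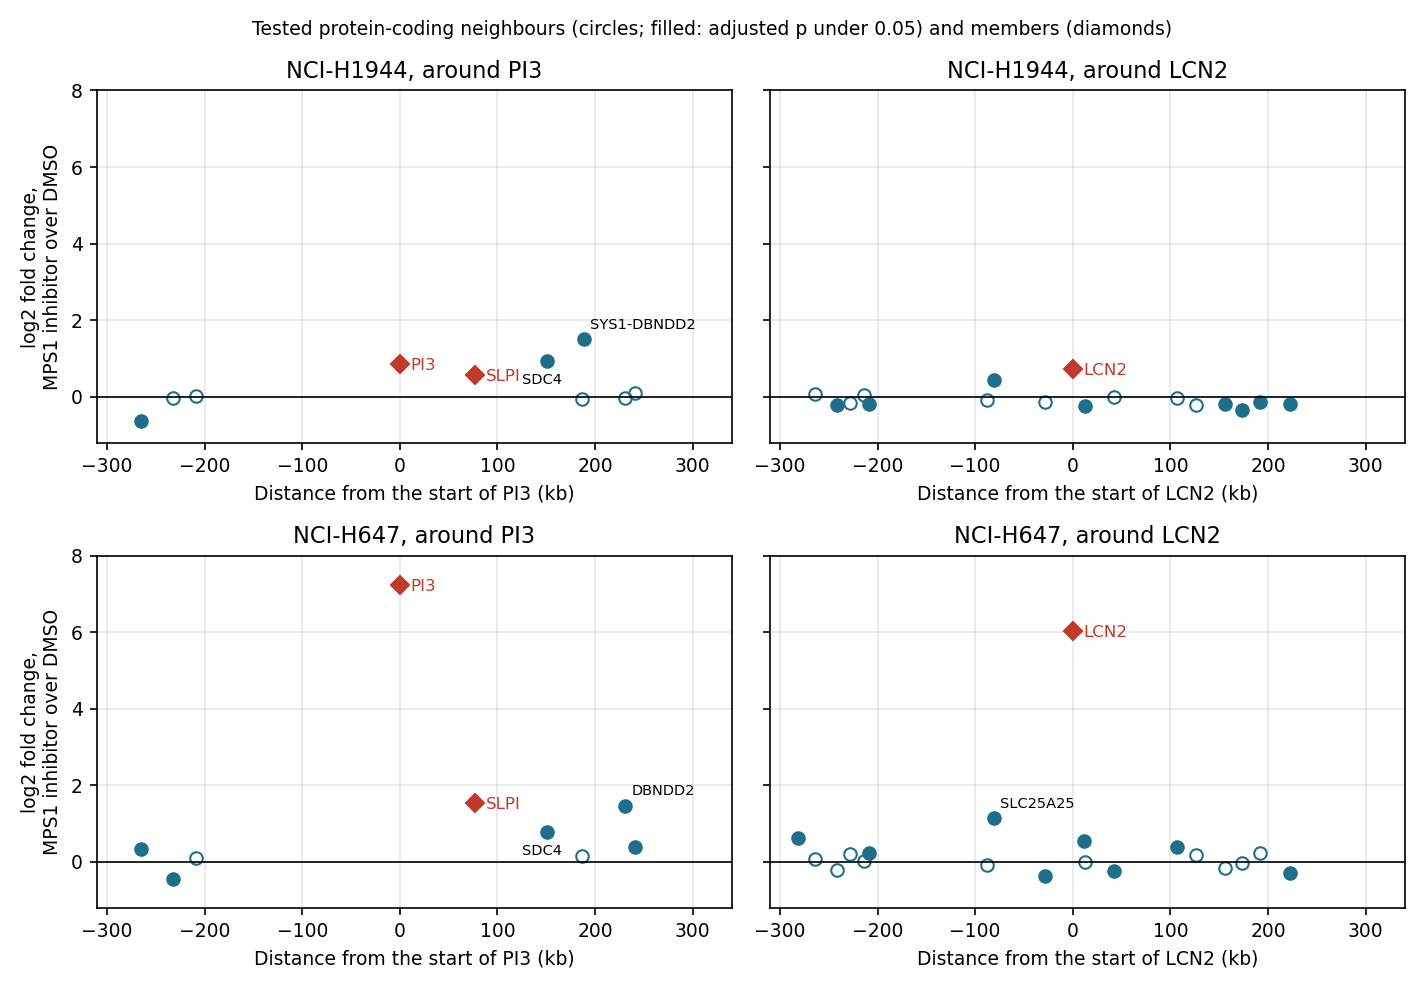
Log2 fold change (inhibitor over DMSO) against distance from the start of PI3 (left) and LCN2 (right), in NCI-H1944 (top) and NCI-H647 (bottom). Circles are tested protein-coding neighbours, filled where the adjusted p was under 0.05, and diamonds are PI3, SLPI and LCN2. In NCI-H647 PI3 and LCN2 stand above every neighbour shown, at fitted values of 7.23 and 6.02 that rest on 3 and 1 DMSO counts.

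Likeness to PI3 and LCN2 was measured as a distance over the 8 libraries, among 12887 genes tested in both lines. Each value was log2 CPM less the mean of the DMSO libraries of the same line. A prior count of 2 was added before the log, which draws in changes that start from counts near the floor. The distance describes the same contrast by which the genes were chosen and carries no test. Nearest to LCN2 were IL23A (distance 0.795), C1QTNF1 (0.862), NR4A1 (0.965), DRAXIN (1.01) and IL1B (1.12). In NCI-H647 their fitted log2 fold changes, made without that prior, ran from 3.55 (NR4A1) to 5.05 (IL23A), under the 6.02 of LCN2. IL23A, a subunit of interleukin-23, had 42 and 40 counts with inhibitor and 3 and 0 with DMSO in NCI-H647, and 28 and 48 against 15 and 18 in NCI-H1944. C1QTNF1 had 63 and 70 counts with inhibitor and 8 and 4 with DMSO in NCI-H647, and 116 and 98 against 44 and 55 in NCI-H1944. Nearest to PI3 were the readthrough locus ARL2-SNX15 (distance 1.58), whose counts are uncertain, IL1B (2.55), MMP1 (3.02), IL23A (3.06) and LCN2 (3.12). MMP1, a collagenase, had 224 and 184 counts with inhibitor and 6 and 9 with DMSO in NCI-H647, and 85 and 67 against 16 and 12 in NCI-H1944. Distances from PI3 were larger than from LCN2. The distance is not scaled to the size of a change and depends on the prior, so the 2 sets of distances cannot be compared directly.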

How the data were processed

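RNA-seq counts per gene were used as the authors deposited them, 1 table per cell line. Per the submitters' processing notes, the tools named were the aligners HISAT2 and STAR, the counters StringTie and featureCounts, and the trimmers cutadapt, Trimmomatic and Trim Galore, on GRCh38 (hg38). For versions, annotation, strand setting and which tool served which table, nothing was given in the sources used here. Each line was fitted alone with edgeR 4.0.16 in R 4.3.3 (quasi-likelihood test, TMM scaling, filterByExpr with a minimum count of 10 and total of 15, Benjamini-Hochberg threshold 0.05), leaving 16738 and 15049 genes in NCI-H1944 and NCI-H647. Standard errors are those of the fit. The members and lists were chosen with earlier results of these data known. Named genes are all members, up to 4 genes per list with the smallest adjusted p in either line, and the 5 nearest to PI3 and to LCN2; 1 gene that this rule names is not reported here. Alternatives were RLE scaling, no filter, DESeq2 1.42.0, a replicate block and leaving out each library. The steps were tested on simulated data. Replicate libraries were compared and none were identical. The labels do not say whether replicates are separate cultures, so a p-value reflects the scatter of these libraries alone, which may be technical. Counting intervals are exact at 95% and floors are 3 counts.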

Additional observations from a re-analysis of the deposited data

Results flagged for a closer look

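Among the members, the named genes and the listed genes tested in both lines, 12 moved in opposite directions: every inhibitor library lay on one side of the DMSO libraries in NCI-H1944 and on the other side in NCI-H647. The difference between the lines was not tested, and line and library kit cannot be told apart. The first 5 below were called in both lines. ANXA2 had a log2 fold change of 0.17 in NCI-H1944 against -0.47 in NCI-H647. S100A10, whose product forms a complex with annexin A2, had 0.16 in NCI-H1944 against -0.21 in NCI-H647. PLSCR4 had 0.41 in NCI-H1944 against -0.62 in NCI-H647. The keratin KRT8 had 0.29 in NCI-H1944 against -0.41 in NCI-H647, and its partner KRT18 had 0.19 and -0.30. Called in NCI-H647 alone were KRT7, with 0.072 in NCI-H1944 and -0.70 in NCI-H647, DMBT1, with 0.62 and -0.77, and the mucin MUC5B, with -0.052 and 0.59. Called in NCI-H1944 alone were CEBPA, with -0.43 in NCI-H1944 and 0.60 in NCI-H647, S100A4, with 0.24 and -0.31, and the interleukin-17 receptor subunit IL17RC, with 0.33 and -0.24. IL6R had -0.062 in NCI-H1944 against 0.18 in NCI-H647 and was called in neither. Of the 8 members only PI3, LCN2, SLPI and S100A9 were tested in both lines. None of these moved in opposite directions, and they were chosen on this contrast.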

How the results depend on the processing

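Genes called numbered 4346 in NCI-H1944 and 8184 in NCI-H647. With no low-count filter NCI-H1944 gave 2325, and with DESeq2 NCI-H647 gave 5446; the cause was not tested. Leaving out 1 library gave 3335 to 3732 in NCI-H1944 and 6922 to 7395 in NCI-H647. Over the 8 context lists, 49 genes were called in each line, and 40 to 45 in NCI-H1944 and 46 to 51 in NCI-H647 without 1 library. With the replicate number as a block, 4817 and 8434 genes were called. Across genes, the replicate differences with inhibitor and with DMSO correlated at 0.0173 in NCI-H1944 and -0.0386 in NCI-H647. No effect shared by same-numbered libraries was seen, which cannot settle whether they were paired. Without 1 library, log2 fold changes in NCI-H1944 ran from 0.74 to 0.97 for PI3, 0.72 to 0.74 for LCN2, 0.50 to 0.66 for SLPI, 1.35 to 7.05 for S100A7 and 0.19 to 0.25 for S100A9. In NCI-H647 they ran from 1.47 to 1.58 for SLPI and 2.92 to 3.57 for S100A9, and CPM ratios from 90.3 to 174.4 for PI3, 45.8 to 90.9 for LCN2 and 0.551 to 1.63 for BPIFB1; without the first DMSO library PI3 and LCN2 have no ratio, since the other is at 0. Of genes not called, the sign turned without 1 library for XBP1 (-0.0061 to 0.039), S100P (-0.051 to 0.041) and WFDC3 (-0.11 to 0.42) in NCI-H1944, and TLR3 (-0.051 to 0.21) in NCI-H647. Of 61 calls of named genes, 57 held under every alternative run, and S100A6, LYZ, SERPINB4 and SLC22A17 in NCI-H1944 did not. In NCI-H1944 the antimicrobial list had 1 call and the squamous list 3 with no filter or with DESeq2 (where LYZ has no adjusted p), and the squamous list 3 without either inhibitor library, and the cytokine list 7 with no filter; in NCI-H647 the airway list had 3 with DESeq2 and the S100 list 5 with the block. With 1 to 3 DMSO counts, depth limits the ratios of PI3 and LCN2 in NCI-H647.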

Other observations

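Genes of airway secretory cells and mucins were called higher in 3 of 11 tested and lower in none in NCI-H1944 (median log2 fold change 0.23), and higher in 6 of 9 and lower in none in NCI-H647 (median 0.53). MUC13, a membrane mucin, rose by 2.72 ± 0.40 in NCI-H647 (adjusted p = 3.24e-05 in edgeR's test) and by 0.54 ± 0.03 in NCI-H1944 (adjusted p = 1.17e-09). In NCI-H647 it was low, with 31 and 30 counts with inhibitor and 8 and 4 with DMSO. Its log2 value there ran from 2.39 to 3.19 without 1 library. In NCI-H1944 MUC13 averaged 413 CPM with inhibitor and 286 CPM with DMSO. AGR2, a disulfide isomerase of mucin-making cells, averaged 13.7 ± 1.90 CPM with inhibitor and 7.24 ± 0.181 CPM with DMSO in NCI-H647 (SD, n = 2 each; adjusted p = 3.90e-05 in edgeR's test). In NCI-H1944 it averaged 3.53 ± 0.520 and 2.92 ± 0.565 CPM (adjusted p = 0.333 in edgeR's test). MUC16, the mucin that carries the CA125 antigen, rose by 0.87 ± 0.11 in NCI-H1944 (adjusted p = 2.76e-05).

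Genes of squamous and cornified epithelium were called higher in 5 of 12 tested and lower in none in NCI-H1944 (median 0.56; 3 called without either inhibitor library), and higher in 1 of 5 and lower in none in NCI-H647 (median 0.40). KLK10, a secreted kallikrein, had 748 and 810 counts with inhibitor and 225 and 193 with DMSO in NCI-H1944 (log2 1.76 ± 0.11, adjusted p = 2.54e-09). KRT6A, a keratin of activated keratinocytes whose close copies may share its reads, had 118 and 130 counts with inhibitor and 11 and 30 with DMSO in NCI-H1944 (log2 2.45 ± 0.34, adjusted p = 4.23e-05), with log2 values of 1.90 without the first DMSO library and 3.35 without the second. In NCI-H647 it had 27 and 15 against 15 and 16 counts (adjusted p = 0.0757). SERPINB4, a near-identical copy of SERPINB3, had 25 and 14 counts with inhibitor and 3 and 4 with DMSO in NCI-H647 (log2 2.83 ± 0.50, adjusted p = 0.000208). Of 5 markers of the squamous lineage, 1 of 3 tested was called higher in NCI-H1944 and none of 2 in NCI-H647. The basal keratin KRT14 was the one called, with 20 and 18 counts with inhibitor and 0 and 0 with DMSO in NCI-H1944 (adjusted p = 0.000889), and it had 0 and 1 against 1 and 0 counts in NCI-H647. TP63, the master factor of squamous cells, had 72 and 87 counts with inhibitor and 72 and 83 with DMSO in NCI-H1944.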
